A study of Mus musculus with 107 samples.

Results

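The ubiquitin-specific proteases (USPs) are the largest family of deubiquitinating enzymes, which remove ubiquitin from proteins and so oppose the ubiquitin ligases. A USP can save a substrate from the proteasome, send an internalised receptor back to the cell surface, edit the ubiquitin on histones or trim chains at the proteasome itself. Fully grown mouse oocytes make little new RNA, so an egg works from stored transcripts whose poly(A) tails are lengthened or shortened as they are used or lost. The members described here are the gene symbols made of Usp, a number and at most 1 further letter. This took 50 of the 21564 gene symbols and left out 5 Usp17l copies, and the rule reads symbols alone.

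Transcript levels came from single eggs of C57BL/6J females aged 2 to 3 months, given 5 IU of PMSG 48 h before oocyte collection. Germinal vesicle oocytes were held in 2.5 µM milrinone, which blocks meiotic resumption, and then matured in culture without it. There were 17 wildtype eggs activated with 10 mM strontium chloride for 2 h from 15 to 16 h after germinal vesicle breakdown, 61 mos -/- eggs and 29 wildtype eggs. All were collected at 38 to 40 h. Strontium ions set off the calcium oscillations that a sperm would cause. The product of Mos is a kinase upstream of MAP kinase and helps hold eggs in metaphase II. The mutant eggs bear the names M1 (22 eggs), M2 (18 eggs) and M3 (21 eggs), which the labels do not define. The labels do not describe the mos allele. All activated eggs were in batch 2, which also held 52 of the mutant and 24 of the wildtype eggs, and batch 1 held 9 mutant and 5 wildtype eggs. In batch 2 the activated, mutant and wildtype eggs were on different plates, so plate and group cannot be told apart there. The deposited sample table divides batch 1 into 2 plates, with 7 mutant eggs on one and 2 mutant and all 5 wildtype eggs on the other, while the library names give batch 1 as a single set.

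No label ties an egg to an animal or a culture, so the counts of all eggs of a group within a batch were added, giving 9 sums of 5436993 to 36209306 counts, and single eggs were not used as replicates. The p-values measure only the spread between these sums, which may be technical. With 3 residual degrees of freedom in the main fit, each gene's spread was estimated with the help of all tested genes. Activated eggs were 1 sum, assumed to vary like the others. Totals per egg ran from 44 to 9132471 counts, and 3 mutant eggs had under 10000. In batch 2 the median total was 207420 in wildtype, 796582 in activated and 503731.5 to 756480 in the 3 mutant groups. Values of single eggs below were not adjusted for this, except where eggs were thinned. Each of 12 oocyte markers was detected in every sum. Of 16 granulosa and cumulus markers 6 to 12 were detected, together at 0.0110 to 0.0315% of counts. Cyp19a1 had 66 to 550 counts in each sum. Amh was at 0 outside M3, with 120 and 11 counts there, and Foxl2 had at most 3 counts in any sum. The part of such RNA in the results was not tested. In 9 wildtype eggs of batch 2 more than 35% of counts lay in 50 genes.

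Of the 50 members, 48 were tested, and Usp9y and Usp35 were not, being almost without counts. The 8 members that passed the test in at least 1 comparison come first. A stretch near the end of their annotated transcript is shown, since the method copies RNA from its poly(A) tail. The capitals mark the hexamer, AATAAA or ATTAAA, that directs cleavage and polyadenylation. Sequences run 5′ to 3′ and come from the GENCODE M21 transcripts (GRCm38). They stop short of the transcript end. Counted back from that end, the last base printed is number 8 in Usp8, 5 in Usp20 and 3 in Usp11. It is number 7 in Usp19, 13 in Usp36 and 4 in Usp10.
Usp8: atttacatctacATTAAAatcttaatgaag
Usp20: tagttttcttgaAATAAAtactcagctctt
Usp11: ctaagtgctggcATTAAAagcatgaccacc
Usp19: atttaaagtgttAATAAAatgagtattcag
Usp36: agatcttggtgcAATAAAgtaatgcatttt
Usp10: ttgtcacccatcAATAAAgatcacaaagtt
Usp2 and Usp34 had no such hexamer in the last 40 bases of the annotated transcript. Over all tested members with a 3′ UTR of at least 100 bases, 35 of 46 (76.1%) had one, against 77.2% of 12421 tested genes. The cytoplasmic polyadenylation element, searched on the sense strand as TTTTAT or TTTTAAT in the last 100 bases, was present in 4 of 46 members (8.70%) and in 19.4% of tested genes. Those members were Usp7, Usp22, Usp28 and Usp44, and none of the 8 was among them. A match here describes letters at an annotated end and does not show which end an egg uses.
Usp22: atcatAATAAAgctgcaTTTTATtctgaaa
Usp28: caactatgcaggTTTTATaaatgtgcaata
In Usp22 the element, the second run of capitals, follows the hexamer, and in Usp28 the capitals mark the element alone. The Usp22 stretch reaches the transcript end, and that of Usp28 stops at base 21 counted back from it.

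Usp19 was the most abundant USP transcript per length. This enzyme, with a form anchored in the endoplasmic reticulum, takes part in protein quality control. Its level, as TMM-scaled CPM (counts scaled to equal library size) per kilobase of exon, was 106.9 in activated eggs. It was 236, 321 and 293 in M1, M2 and M3 and 470 in wildtype eggs of batch 1, and 140, 150 and 128 in the mutants and 430 in wildtype eggs of batch 2. Usp28, a partner of the DNA damage response and a stabiliser of Myc, came next with a mean of 131 CPM per kb over the 9 sums. Usp46, which works with the WD-repeat proteins Wdr48 and Wdr20, followed at 87.5, Usp15, a close relative of Usp4, at 75.3 and the X-linked Usp9x at 75.0. Usp21, a histone deubiquitinase, had 72.02, Usp38 had 69.9 and Usp10, a partner of the stress granule protein G3bp1, had 60.5. Usp7 (48.7) and Usp2 (34.96) completed the 10 highest. The length was that of all annotated exons of a gene together, which can be far above that of a single transcript. For Usp10 it was 9559 bases, against 3726 in the transcript whose end is shown above. The order below Usp19 thus depends on the length used. In activated eggs the order closed up, with 106.9 CPM per kb for Usp19, 105 for Usp46 and 104 for Usp28, whereas Usp19 was well above Usp28 (166 and 150) in both wildtype sums. At the other end, Usp9y, the Y-linked copy of Usp9x, had 1 count over all eggs, and Usp35, Usp18, which removes the ubiquitin-like Isg15, Usp44 and Usp25 averaged under 1 CPM over the sums.

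**Figure D1:**
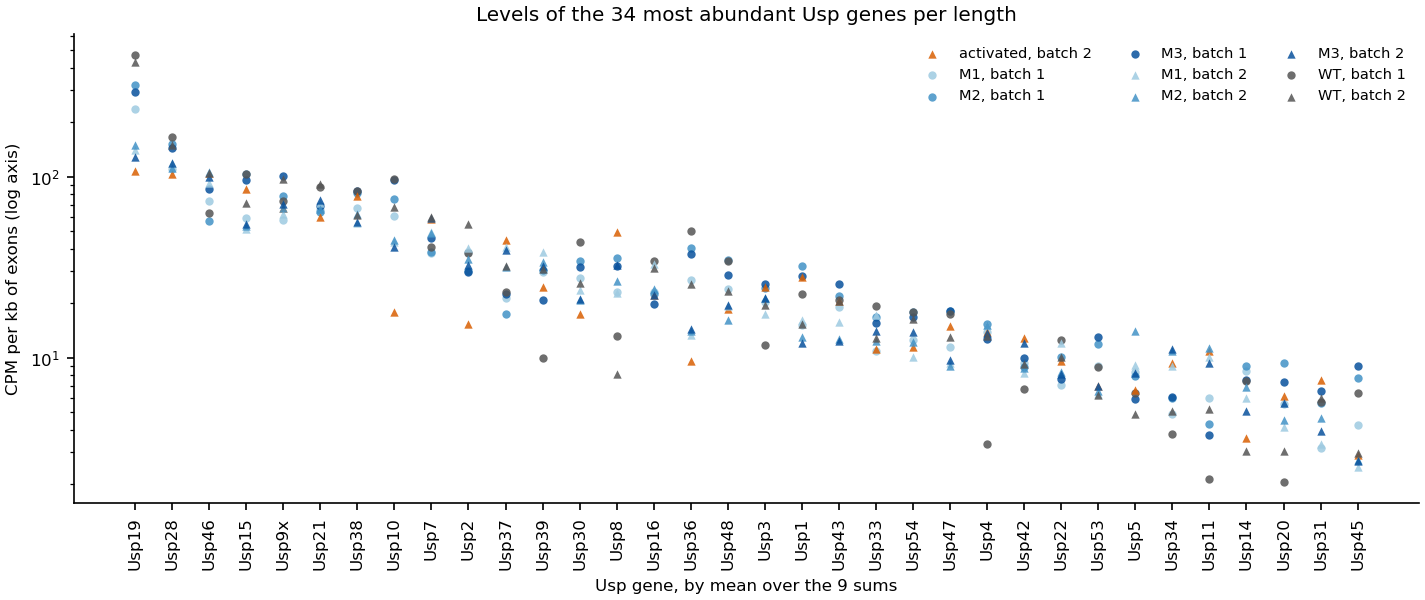
Level per kilobase of exon (TMM-scaled CPM per kb, log axis) of the 34 most abundant Usp genes, ordered by their mean over the 9 sums, with 1 point for each sum. Usp19 is highest in both wildtype sums, and its activated point (106.9) lies near those of Usp28 and Usp46.

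The family as a whole held close to 1 in 100 counts in every group. Its share was 0.982% in activated eggs. In batch 1 it was 0.955, 1.14 and 1.16% in M1, M2 and M3 and 1.16% in wildtype eggs, and in batch 2 it was 0.921, 0.938 and 0.956% in the mutants and 1.06% in wildtype eggs. Usp19 made up 8.32% of the family's counts in activated eggs. It made up 18.2, 19.2 and 17.1% in the mutants and 25.4% in wildtype eggs of batch 1, and 11.4, 12.1 and 10.2% in the mutants and 24.6% in wildtype eggs of batch 2. The remaining members together held 0.900% of counts in activated eggs, 0.781, 0.925 and 0.966% in mutants and 0.867% in wildtype eggs of batch 1, and 0.816, 0.825 and 0.858% in mutants and 0.798% in wildtype eggs of batch 2. With Usp19 set aside, the activated sum and all 3 mutant sums of batch 2 thus lay above their wildtype sum, while in batch 1 wildtype eggs lay between M1 and M2. These shares were not tested.

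**Figure D2:**
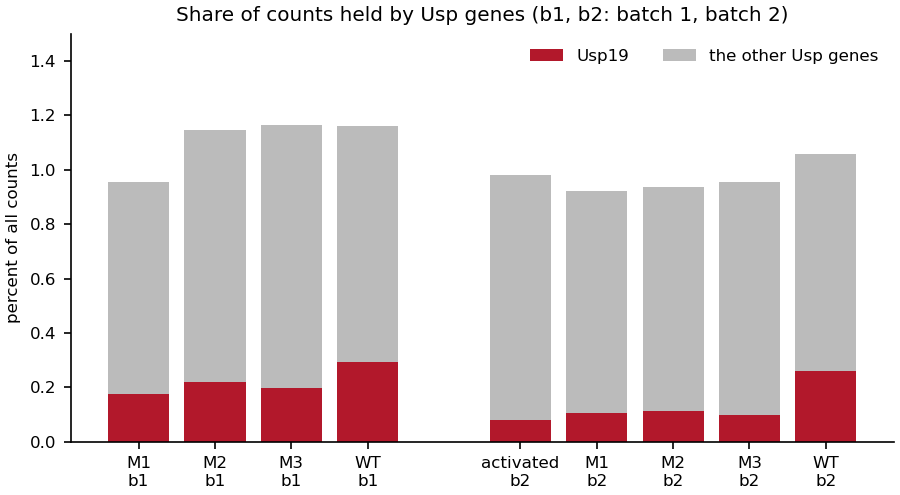
Percent of all counts held by Usp19 (red) and by the other Usp genes (grey) in the 9 sums, stacked, with batch 1 on the left. The red part is largest in the wildtype sum of each batch, at 25.4 and 24.6% of the family's counts.

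More USP transcripts were seen per activated and mutant egg than per wildtype egg of batch 2. With each egg thinned to 60000 counts, a median of 37 members was detected in activated eggs (34 to 41), 36 in mutant eggs (20 to 40) and 31 in wildtype eggs (24 to 36) of batch 2. In batch 1 the medians were 36 in mutant (33 to 39) and 35 in wildtype eggs (32 to 37). The 9 wildtype eggs with concentrated counts had a median of 30 members, and the other 15 of batch 2 had 32. Their part in the difference was not tested beyond these values. Detection over all genes was not counted, so the difference cannot be read as particular to USP transcripts.

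Between mutant and wildtype eggs 6 of 48 tested members differed, with edgeR adjusted p under 0.05. Here rose and fell mean a higher or lower share of the scaled counts, which are copied from poly(A) tails. Tail length and total RNA per egg were not tested. Usp8, Usp20, Usp34 and Usp11 rose in mutants, against a background of 5.36% of all tested genes that rose, and Usp19 and Usp36 fell, against 4.03% that fell. Between activated and wildtype eggs 6 of 48 differed as well. Usp8 and Usp20 rose, against 5.66% of all genes, and Usp19, Usp36, Usp10 and Usp2 fell, against 7.33%. Usp10 and Usp2 also fell between activated and mutant eggs and no member rose, with backgrounds of 3.43% lower and 1.42% higher (474 and 196 genes). Under upper quartile scaling 344 genes were lower and 324 higher, and 1 member, Usp8, rose under that scaling, RLE scaling and DESeq2. In each direction the members' count lay near the background, so it is no result about the family as a whole. The first pair of comparisons shares the wildtype sums, so their common members, Usp8, Usp20, Usp19 and Usp36, are not independent findings.

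The median log2 fold of the 48 members was -0.11 in mutants against wildtype, with 0.06 over all tested genes, and 19 members were above 0. In activated against wildtype eggs it was 0.17, with 0.15 over all genes, and 30 members were above 0. Under upper quartile scaling the median of all genes in the activated comparison moved to 0.30, and the split of its calls over all genes turned to 993 higher and 841 lower, from 783 and 1014. No called member changed direction under another scaling. Without the batch term 1 member, Usp8, passed in activated eggs (1.42% of all genes) and 0 in mutants (0.369% of all genes). With sums per plate Usp8, Usp19, Usp10 and Usp2 still passed in activated eggs (4.99% of all genes). Usp8 and Usp19 still passed in mutants with those sums (3.06% of all genes).

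**Figure D3:**
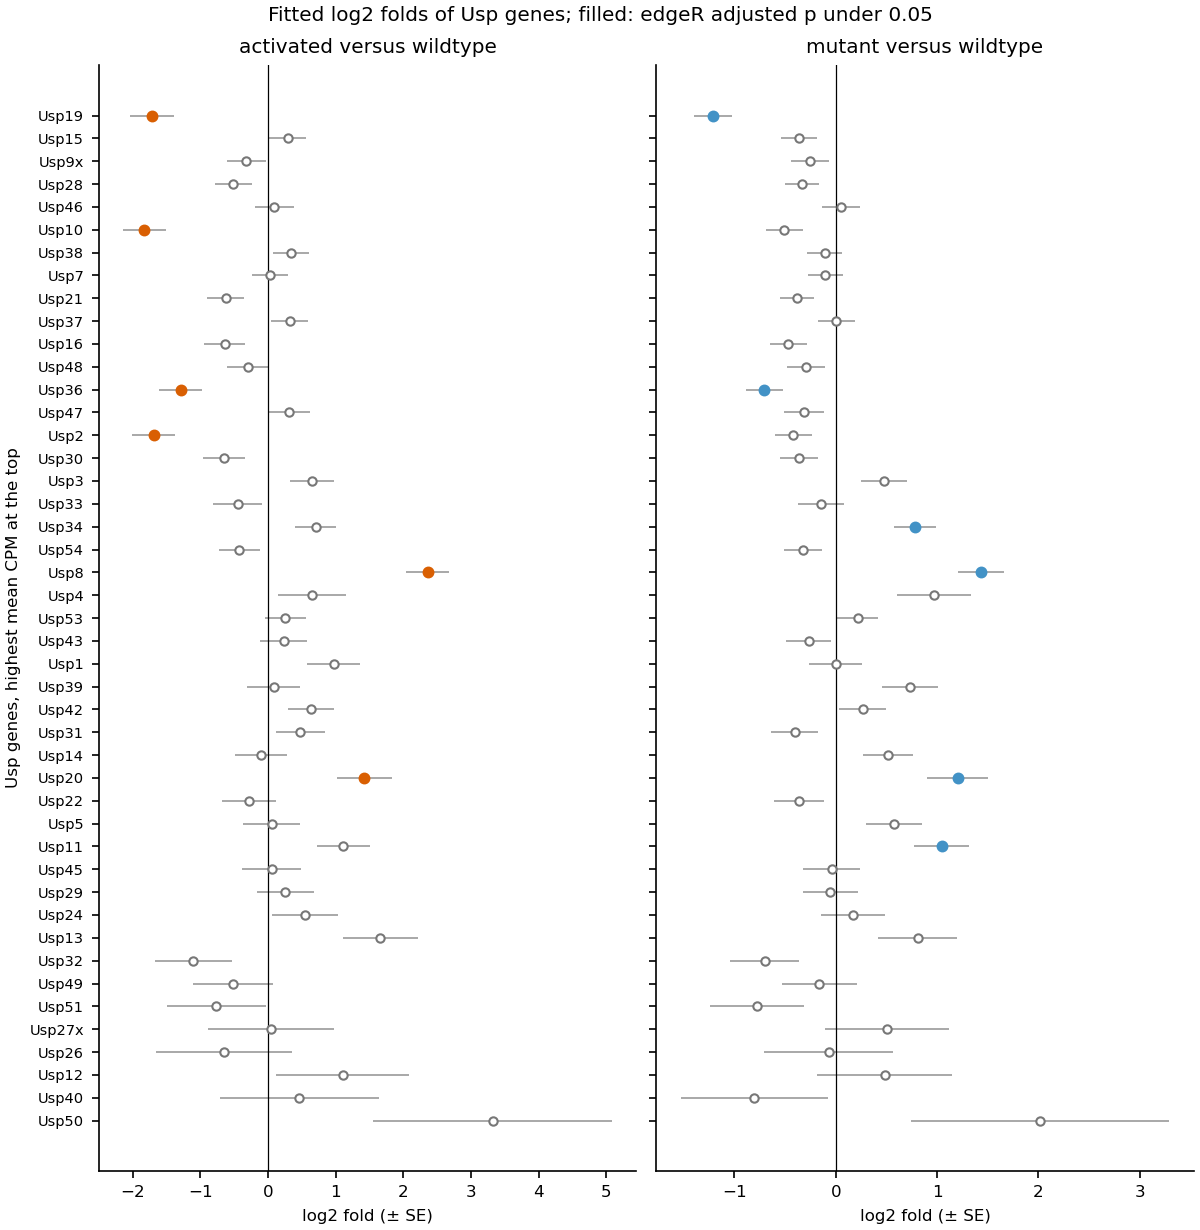
Fitted log2 folds with their standard errors for the 45 tested Usp genes with a mean of at least 1 CPM, ordered by level, for activated (left) and mutant (right) against wildtype eggs. Filled points passed the test, and Usp8 (2.36 and 1.43) and Usp19 (-1.71 and -1.22) stand farthest from 0 among them on either side of the mutant panel.

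Usp8 showed the clearest rise. It removes ubiquitin from receptors and sorting proteins at endosomes and lies on chromosome 2 at 126707328 to 126759297 (plus strand). Its level was 207 TMM-scaled CPM in activated eggs. In batch 1 it was 96.2, 148 and 135.2 CPM in M1, M2 and M3 and 55.3 in wildtype eggs, and in batch 2 it was 95.4, 111 and 137 in the mutants and 33.99 in wildtype eggs. All 7 sums of activated and mutant eggs lay above both wildtype sums, and the activated sum was highest. On the log2 scale the fold was 2.36 ± 0.32 (SE) in activated eggs (edgeR adjusted p = 1.21e-04) and 1.43 ± 0.23 in mutants (edgeR adjusted p = 6.98e-04). Within batches the mutant mean was 2.29 times the wildtype level in batch 1 and 3.37 times in batch 2, and the activated level was 6.09 times wildtype in batch 2.

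Single activated eggs were separated from wildtype eggs too, and mutant eggs in part. In batch 2, all 17 activated eggs held Usp8 counts, at 112 to 278 raw CPM with a median of 240.2. Mutant eggs had a median of 106.8 CPM, with counts in 46 of 49, and wildtype eggs a median of 19.6 CPM, with counts in 19 of 24 and a highest value of 84.7. Every activated egg was thus above every wildtype egg of its batch, as were 36 of 49 mutant eggs. The median wildtype egg had fewer total counts, so the numbers of eggs with Usp8 counts are not like for like. In batch 1, with 9 mutant and 5 wildtype eggs, medians were 126.5 and 47.5 CPM. The activated level passed the mutant level by a log2 fold of 0.93 ± 0.27, just short of the threshold (edgeR adjusted p = 0.0534). It passed under 7 of the alternatives, among them DESeq2 (adjusted p = 0.0216), and the fold ranged from 0.80 to 1.09. Usp50, on the opposite strand of the same stretch, had 172 counts in all against 16844 for Usp8, and the strand of reads is not known.

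Usp19 showed the largest fall among the members that passed in mutants. The gene lies on chromosome 9 at 108490602 to 108502337 (plus strand). Its level was 753 TMM-scaled CPM in activated eggs. In batch 1 it was 1661, 2259 and 2066 CPM in M1, M2 and M3 and 3312 in wildtype eggs, and in batch 2 it was 989, 1055 and 902 in the mutants and 3027 in wildtype eggs. The wildtype sums stood above all others, and each mutant sum was lower in batch 2 than in batch 1. The log2 fold was -1.71 ± 0.33 in activated eggs (edgeR adjusted p = 0.0019) and -1.22 ± 0.19 in mutants (edgeR adjusted p = 5.51e-04). The mutant mean was 0.603 times wildtype in batch 1 and 0.324 times in batch 2. The size of both folds leaned on the wildtype sum of batch 2, without which they were -1.14 in activated eggs (edgeR adjusted p = 0.0244) and -0.74 in mutants (edgeR adjusted p = 0.0476).

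In batch 2, the 17 activated eggs ran from 257 to 1800 raw CPM of Usp19 (median 723), the 49 mutant eggs from 518 to 3440 (median 1108) and the 24 wildtype eggs from 1830 to 3505 (median 2759). No activated egg reached the lowest wildtype egg, and 42 of 49 mutant eggs were below it. In batch 1 the ranges met, at 1237 to 2797 CPM in 9 mutant and 2442 to 3551 CPM in 5 wildtype eggs, and 7 of the 9 mutant eggs were below all 5 wildtype eggs.

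**Figure D4:**
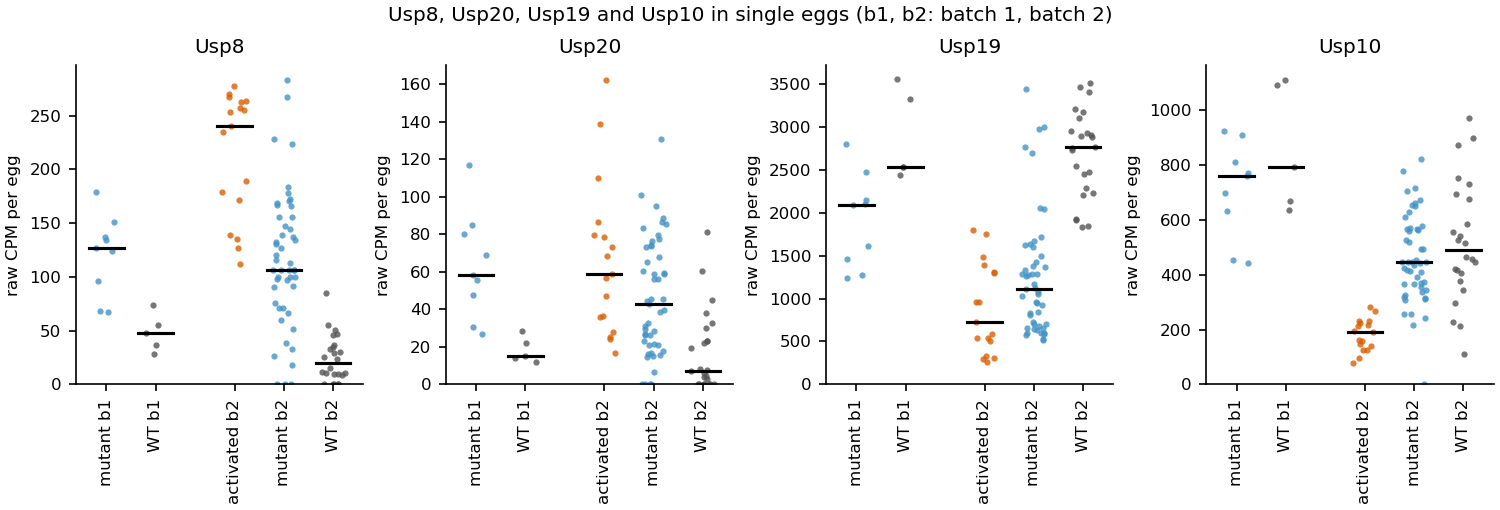
Raw CPM of Usp8, Usp20, Usp19 and Usp10 in single eggs of at least 10000 counts, with 1 point for each egg and a bar at the median, by group and batch. In batch 2 the activated eggs lie wholly above the wildtype eggs for Usp8 and wholly below them for Usp19.

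Usp20, which removes ubiquitin from receptors that are being recycled and from the autophagy kinase Ulk1, rose in both comparisons (chromosome 2, 30982279 to 31023586, plus strand). Its level was 55.2 TMM-scaled CPM in activated eggs. In batch 1 it was 50.3, 84.1 and 65.9 CPM in M1, M2 and M3 and 18.7 in wildtype eggs, and in batch 2 it was 37.2, 40.9 and 50.4 in the mutants and 27.4 in wildtype eggs. Both wildtype sums were the lowest of the 9, by a wider margin in batch 1, where the mutant mean was 3.58 times wildtype against 1.57 times in batch 2. The log2 fold was 1.43 ± 0.41 in activated eggs (edgeR adjusted p = 0.0265) and 1.20 ± 0.30 in mutants (edgeR adjusted p = 0.0167). Neither passed without the wildtype sum of batch 1 (1.01 in activated eggs, edgeR adjusted p = 0.0867, and 0.64 in mutants, edgeR adjusted p = 0.274) or the M1 sum of batch 1 (1.41 in activated eggs, edgeR adjusted p = 0.0601, and 1.19 in mutants, edgeR adjusted p = 0.0523). The activated call was also lost without the wildtype eggs of concentrated counts (1.33, edgeR adjusted p = 0.0589). In batch 2 the median egg had 58.95 raw CPM among activated, 42.7 among mutant and 7.41 among wildtype eggs. The wildtype eggs, of lower depth, had Usp20 counts in 17 of 24. Usp33, a relative of Usp20 with similar substrates, had log2 folds of -0.44 ± 0.36 in activated eggs and -0.14 ± 0.23 in mutants. It did not pass in either (edgeR adjusted p = 0.498 and 0.803).

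Usp34 and Usp11 rose in mutants. Usp34 is a very large enzyme that acts on axin in Wnt signalling (chromosome 11, 23306895 to 23490560, plus strand). It had 173 TMM-scaled CPM in activated eggs, 90.3, 111 and 113 CPM in M1, M2 and M3 and 70.3 in wildtype eggs of batch 1, and 165, 200.1 and 206 in the mutants and 93.2 in wildtype eggs of batch 2. Each mutant sum was above the wildtype sum of its batch. The log2 fold was 0.78 ± 0.20 in mutants (edgeR adjusted p = 0.0211), and 0.70 ± 0.30 in activated eggs, which did not pass (edgeR adjusted p = 0.145). With eggs thinned to equal depth the mutant value was 0.38 (edgeR adjusted p = 0.406). The call was also lost without the wildtype sum of batch 2 (0.57, edgeR adjusted p = 0.228), without the M1, M2 or M3 sum of batch 2 (0.68, 0.68 and 0.70) and without the M2 sum of batch 1 (0.75). Ahsa2 overlaps Usp34 on the other strand, with 11776 counts against 18637, so reads of the pair may have been mixed.

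Usp11, a DNA repair enzyme on the X chromosome (20703906 to 20720539, plus strand), had 51.5 TMM-scaled CPM in activated eggs. It had 28.4, 20.4 and 17.7 CPM in M1, M2 and M3 and 10.1 in wildtype eggs of batch 1, and 47.7, 53.3 and 44.1 in the mutants and 24.6 in wildtype eggs of batch 2. The mutant mean was about the same multiple of wildtype in each batch, 2.19 in batch 1 and 1.97 in batch 2. In mutants the log2 fold was 1.05 ± 0.27 (edgeR adjusted p = 0.0218), and 1.12 ± 0.39 in activated eggs, which did not pass (edgeR adjusted p = 0.0673). The mutant call was lost without the wildtype sum of batch 1 (0.98) or batch 2 (1.11), the M1 sum of batch 1 (0.94), or the M2 or M3 sum of batch 2 (0.92 and 0.95), with edgeR adjusted p of 0.0594 to 0.11. With eggs thinned to equal depth it was 0.88 (edgeR adjusted p = 0.187).

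Usp36, a nucleolar enzyme that protects ribosome-making proteins, fell in both comparisons (chromosome 11, 118259651 to 118290244, minus strand). It had 73.5 TMM-scaled CPM in activated eggs, 207, 309 and 288 CPM in M1, M2 and M3 and 385 in wildtype eggs of batch 1, and 102.4, 107.6 and 110.7 in the mutants and 195 in wildtype eggs of batch 2. The groups overlapped across batches but not within them. Its log2 fold was -1.29 ± 0.31 in activated eggs (edgeR adjusted p = 0.00974) and -0.71 ± 0.18 in mutants (edgeR adjusted p = 0.0211). The mutant call was lost without the wildtype sum of batch 2 (-0.54, edgeR adjusted p = 0.224) or the M1 sum of batch 1 (-0.66, edgeR adjusted p = 0.0594), and the activated call with thinned eggs (-0.86, edgeR adjusted p = 0.0824). Single eggs of batch 2 did not show the mutant fall, since the median was 117.8 raw CPM in mutant and 100.9 in wildtype eggs. The medians were 77.5 CPM in activated eggs, and in batch 1 they were 274 in mutant and 396 in wildtype eggs.

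Usp10 and Usp2 fell after activation and not to the same degree in mutants. Usp10, which with G3bp1 controls stress granules and also acts on p53, lies on chromosome 8 at 119910360 to 119957560 (plus strand). Its level was 171 TMM-scaled CPM in activated eggs. In batch 1 it was 577, 716 and 919.7 CPM in M1, M2 and M3 and 929 in wildtype eggs, and in batch 2 it was 416, 428 and 393 in the mutants and 653 in wildtype eggs. The activated sum was below the other 8. The log2 fold was -1.83 ± 0.31 in activated against wildtype eggs (edgeR adjusted p = 8.25e-04), -1.32 ± 0.28 in activated against mutant eggs (edgeR adjusted p = 0.0111) and -0.51 ± 0.18 in mutant against wildtype eggs, which did not pass (edgeR adjusted p = 0.0909). Mutant against wildtype eggs passed under 4 alternatives, with folds of -0.56 to -0.64 and a lowest adjusted p of 0.0219 with thinned eggs. In batch 2, activated eggs ran from 77.1 to 283 raw CPM (median 193), mutant eggs from 0 to 823 (median 444) and wildtype eggs from 111 to 970.2 (median 489). Every activated egg was below the wildtype median, and 21 of 24 wildtype eggs were above every activated egg.

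Usp2, which acts on Mdm2, cyclin D1 and proteins of the circadian clock, lies on chromosome 9 at 44067021 to 44095627 (plus strand). It had 74.3 TMM-scaled CPM in activated eggs, 185, 145.4 and 143.7 CPM in M1, M2 and M3 and 182 in wildtype eggs of batch 1, and 195, 169.5 and 156 in the mutants and 264 in wildtype eggs of batch 2. Again the activated sum stood alone at the bottom, while mutant and wildtype sums overlapped in batch 1. Its log2 fold was -1.69 ± 0.31 in activated against wildtype eggs (edgeR adjusted p = 0.00157), -1.27 ± 0.29 against mutant eggs (edgeR adjusted p = 0.0148) and -0.42 ± 0.19 in mutant against wildtype eggs (edgeR adjusted p = 0.184). The median egg of batch 2 had 82.9 raw CPM among activated, 177 among mutant and 194 among wildtype eggs, and all 17 activated eggs were below the wildtype median. With sums per plate neither Usp10 (-1.33, edgeR adjusted p = 0.0631) nor Usp2 (-1.27, edgeR adjusted p = 0.0814) passed between activated and mutant eggs.

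**Figure D5:**
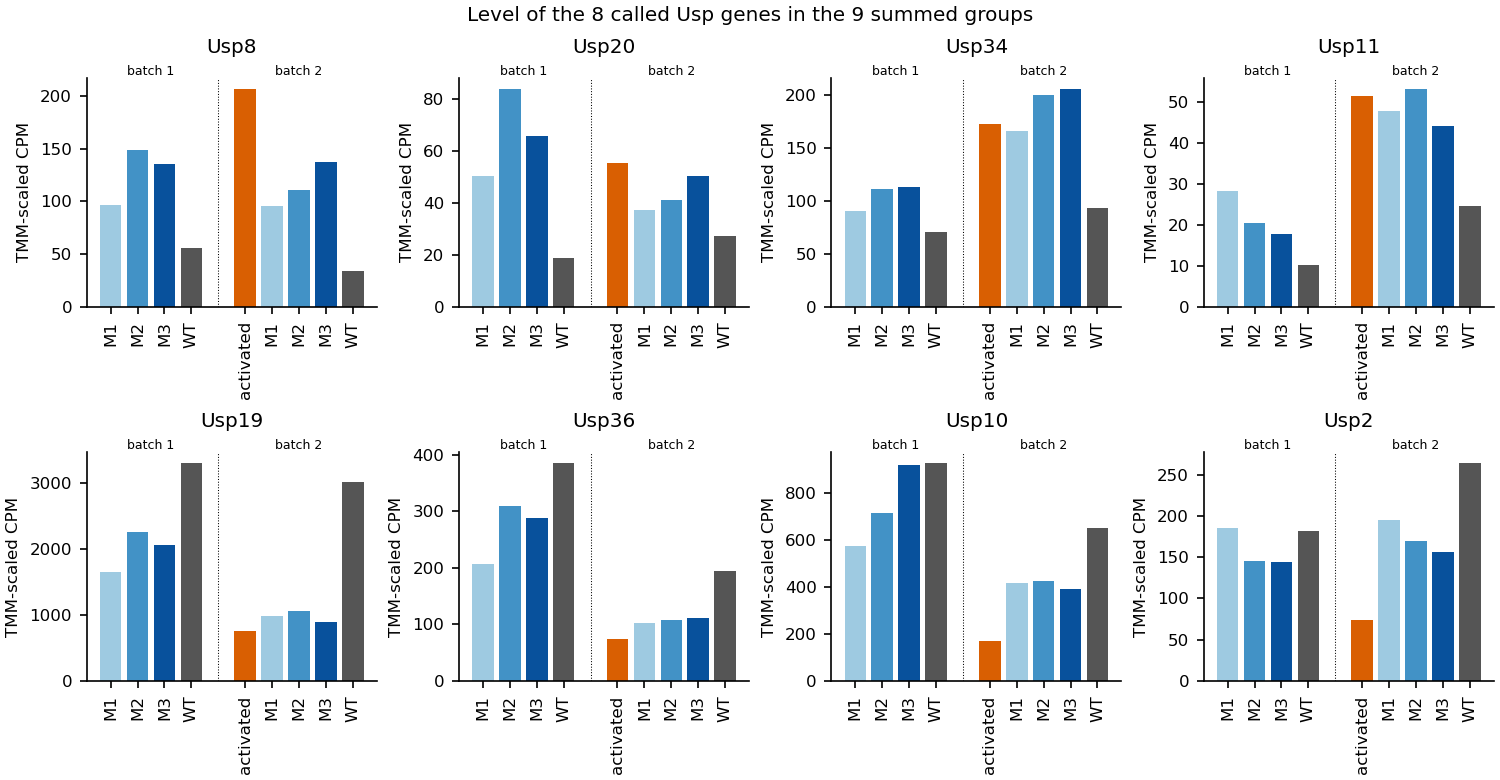
TMM-scaled CPM of the 8 Usp genes that passed the test, as 1 bar for each of the 9 sums, batch 1 on the left and batch 2 on the right of the dotted line. Usp8 and Usp20 have their lowest bars in wildtype eggs, Usp19 and Usp36 their highest within each batch, and Usp10 and Usp2 have their lowest bar in activated eggs (171 and 74.3).

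Usp4 and Usp39 did not pass, and a single egg held most of their wildtype counts in batch 2. Both act at the spliceosome, Usp4 with Sart3 on splicing factors and Usp39 as an inactive family member needed for splicing. Usp4 had 120.4 TMM-scaled CPM in activated eggs, 120.4, 132.6 and 108.9 CPM in M1, M2 and M3 and 28.8 in wildtype eggs of batch 1, and 131, 131.5 and 118.5 in the mutants and 113.5 in wildtype eggs of batch 2. The wildtype sums thus differed widely from each other. In wildtype eggs of batch 2, egg 45 held 434 of the 531 Usp4 counts (81.7%) and 291 of the 355 Usp39 counts (81.97%). That egg had 448563 counts in all and was not one of the 9 eggs with concentrated counts. Without it the raw level of the wildtype sum was 19.4 CPM for Usp4 and 12.8 CPM for Usp39, against 25.6 and 21.6 CPM in the wildtype sum of batch 1.

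With all eggs, the log2 fold of Usp4 was 0.66 ± 0.50 in activated eggs (edgeR adjusted p = 0.472) and 0.97 ± 0.37 in mutants (edgeR adjusted p = 0.136). Without egg 45, an exclusion chosen after its counts were seen, they were 2.18 ± 0.31 in activated eggs (edgeR adjusted p = 1.26e-04) and 2.21 ± 0.24 in mutants (edgeR adjusted p = 7.24e-06). For Usp39 in activated eggs it was 0.08 ± 0.40 with all eggs (edgeR adjusted p = 0.935) and 1.45 ± 0.38 without egg 45 (edgeR adjusted p = 0.0143). For Usp39 in mutants it was 0.74 ± 0.28 with all eggs (edgeR adjusted p = 0.111) and 1.84 ± 0.28 without egg 45 (edgeR adjusted p = 2.44e-04). The medians of batch 2 eggs were 140.6 raw CPM of Usp4 in activated, 124.7 in mutant and 16.3 in wildtype eggs, and 62.8 CPM of Usp39 in activated, 78.9 in mutant and 1.57 in wildtype eggs. Every activated egg and 46 of 49 mutant eggs were above the wildtype median for Usp4, as were all 17 and 47 of 49 for Usp39. The wildtype eggs of batch 2 were of lower depth, and 12 of 24 had Usp39 counts. Without egg 45 the number of members called was 8 in activated eggs (4 higher and 4 lower) and 8 in mutants (6 higher and 2 lower), the additions being these genes. The share of all genes called rose in that fit as well, to 14.4% in activated eggs and 12.2% in mutants, against 13% and 9.38% with all eggs. With egg 45 kept, Usp4 passed in mutants with no filter (0.97), DESeq2 (0.91), limma (1.37) and thinned eggs (1.38) and without the M3 sum of batch 2 (1.05), and in activated eggs with thinned eggs (1.16). Usp39 passed in mutants with no filter (0.73) and limma (0.97). The other spliceosomal member, Usp15, had log2 folds of 0.29 ± 0.28 in activated eggs and -0.36 ± 0.18 in mutants and did not pass (edgeR adjusted p = 0.571 and 0.234).

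By role, most members did not pass. Of 9 members that act on chromatin 0 rose and 0 fell in either comparison. Over all genes 5.66% rose and 7.33% fell in activated eggs, and 5.36% rose and 4.03% fell in mutants. Thus 0 of 9 lay near the background and is no result about these members. Among them Usp7, which stabilises Mdm2 and the methylation factors Dnmt1 and Uhrf1, had 453 TMM-scaled CPM in activated eggs. It had 293, 297 and 355 CPM in the mutants and 316 in wildtype eggs of batch 1, and 384, 380.3 and 458 in the mutants and 464 in wildtype eggs of batch 2. Wildtype eggs lay between the mutant sums in batch 1 and were highest in batch 2, with log2 folds of 0.03 ± 0.27 in activated eggs and -0.10 ± 0.17 in mutants (edgeR adjusted p = 0.968 and 0.818). Usp21 had log2 folds of -0.62 ± 0.28 in activated eggs and -0.38 ± 0.17 in mutants (edgeR adjusted p = 0.159 and 0.187), and passed in both with thinned eggs (-0.86 in activated eggs and -0.63 in mutants). Usp22, the enzyme of the SAGA coactivator, had -0.28 ± 0.40 in activated eggs and -0.36 ± 0.25 in mutants (edgeR adjusted p = 0.729 and 0.439). Usp44, which acts at the spindle checkpoint in other cells, had at most 1.43 CPM in any sum.

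Of 7 members in DNA repair and replication 1 rose in mutants, Usp11, against 5.36% of all genes. In activated eggs 0 passed, against 5.66% of all genes that rose and 7.33% that fell. Usp28 had log2 folds of -0.51 ± 0.28 in activated eggs and -0.33 ± 0.17 in mutants (edgeR adjusted p = 0.263 and 0.267). Usp1, which with Wdr48 acts on the replication clamp and on Fanconi anaemia proteins, had a log2 fold of 0.97 ± 0.39 in activated eggs (edgeR adjusted p = 0.117), while the mutant sums of batch 1 lay on both sides of wildtype. Of 6 tested members at the proteasome and endosome, Usp8 rose in activated eggs and in mutants (5.66 and 5.36% of all genes). Usp2 fell in activated eggs (7.33% of all genes). Usp14, bound to the proteasome, had -0.11 ± 0.38 in activated eggs and 0.52 ± 0.25 in mutants (edgeR adjusted p = 0.905 and 0.229), and Usp9x -0.32 ± 0.29 in activated eggs and -0.25 ± 0.19 in mutants (edgeR adjusted p = 0.553 and 0.474). Of 7 tested members placed with mitochondria and autophagy, 1 rose and 3 fell in activated eggs (5.66 and 7.33% of all genes), and 1 rose and 2 fell in mutants (5.36 and 4.03% of all genes), all described above. Of these Usp19 and Usp36 are known for protein quality control and the nucleolus rather than for mitochondria. Usp30, which sits on the mitochondrial surface, had -0.65 ± 0.31 in activated eggs and -0.37 ± 0.19 in mutants and did not pass (edgeR adjusted p = 0.192 and 0.266).

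Usp13, a relative of Usp5 that acts on the autophagy protein Becn1, came close to the threshold in activated eggs. It had 24.8 TMM-scaled CPM there, 13.1, 5.67 and 10.6 CPM in the mutants and 5.15 in wildtype eggs of batch 1, and 11.1, 10.9 and 19.5 in the mutants and 8.12 in wildtype eggs of batch 2. Each wildtype sum was the lowest of its batch. The log2 fold was 1.66 ± 0.55 in activated eggs (edgeR adjusted p = 0.0544), and it passed under 4 alternatives, and 0.81 ± 0.39 in mutants (edgeR adjusted p = 0.227).

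Of the 10 members highest per length, Usp19, Usp10 and Usp2 passed in a comparison and the other 7 did not. All 3 fell in activated against wildtype eggs, where 7.33% of all tested genes fell. Usp19 alone of them fell in mutants, against 4.03% of all genes. Usp10 and Usp2 also fell in activated against mutant eggs, against 3.43%. The share called among genes of similar level was not counted, so no excess can be read from these numbers. Usp15 had 1411 TMM-scaled CPM in activated eggs, 976, 1717 and 1583 CPM in the mutants and 1729 in wildtype eggs of batch 1, and 856, 886 and 907 in the mutants and 1185 in wildtype eggs of batch 2. Usp9x, needed for early development in the mouse, had 1017 CPM in activated eggs, 865, 1171 and 1510.5 CPM in the mutants and 1109 in wildtype eggs of batch 1, and 940.5, 1014 and 1064 in the mutants and 1466 in wildtype eggs of batch 2. Usp46 had 826 CPM in activated eggs, 576, 444 and 673 CPM in the mutants and 492 in wildtype eggs of batch 1, and 721, 834 and 781 in the mutants and 826 in wildtype eggs of batch 2. Wildtype eggs were above every mutant sum of their batch for Usp15, and lay within the mutant range in batch 1 for Usp9x and in both batches for Usp46. None of these genes passed. The 3 members that work with Wdr48 or Wdr20, Usp1, Usp12 and Usp46, had 0 higher and 0 lower in activated eggs and in mutants. So did the 4 tested immune and germline members, Usp18, Usp25, Usp26 and Usp29. Over all genes 5.66% rose and 7.33% fell in activated eggs, and 5.36% rose and 4.03% fell in mutants. For lists this short 0 calls lie near the background. Usp14 overlaps Thoc1, and Usp30 overlaps Alkbh2, on the other strand, so their counts are uncertain too.

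The comparison of mutant groups asked whether USP transcripts differed among M1, M2 and M3. They shared the plates of batch 2 that held mutants. Sums per group and plate were compared over 11009 genes, 45 of them members, and the plate was the block. Batch 1 entered as a single plate, as in the library names, although by the deposited table its M2 eggs were all on one plate and its M1 and M3 eggs on both. No member passed between M2 and M1 or between M3 and M1 by edgeR, DESeq2 or limma. The background by edgeR was 0.0% of genes in each. DESeq2 called 28 genes in all between M2 and M1 and 60 between M3 and M1, and limma 0 and 7. At an unadjusted p under 0.05 there were 1 and 2 members, against 6.27 and 7.87% of all genes. The largest of these differences was Usp8, 0.73 ± 0.26 higher in M3 than in M1 on the log2 scale (edgeR adjusted p = 0.585). Its M3 sums had 155, 134 and 142.2 CPM on the 2 plates of batch 2 and in batch 1, against 53.2, 113.8 and 98.02 CPM in the matching M1 sums. The number of growths given for each egg in the deposited table, also undefined, was equal to the number in the mutant name, was 1 in wildtype eggs, and was 1 in 8 and 2 in 9 of the activated eggs. Activated eggs with 2 growths had a median of 255 raw CPM of Usp8, and those with 1 growth 181. For Usp10 the medians were 212 and 175 CPM, and for Usp19 723 and 776 CPM. The ranges overlapped for these 3 genes, and no test was made.

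The difference between batches in the mutant response was tested directly, and no member passed by edgeR, with 0.0% of all genes called. The M1, M2 and M3 sums of a batch served as its replicates, although they may share animals. Wildtype eggs gave a single sum per batch, so this lack of calls does not show that the batches agreed. At an unadjusted p under 0.05 there were 6 members, against 8.29% of all genes. Usp4 had the lowest p, with a log2 difference of -1.91 ± 0.34 (edgeR adjusted p = 0.134). It passed with DESeq2 (adjusted p = 1.96e-04) and without a filter (edgeR adjusted p = 0.0331), and was 0.33 without egg 45 (edgeR adjusted p = 0.856). Usp19 (-0.89 ± 0.31, edgeR adjusted p = 0.478) and Usp20 (-1.19 ± 0.48, edgeR adjusted p = 0.538) were the members of these 6 that were called in the pooled comparisons.

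Among the other deubiquitinase families, both directions were seen. Of 13 tested members of the OTU family 1 rose and 2 fell in activated eggs, and 1 rose and 1 fell in mutants, against 5.66 and 7.33% of all genes in activated eggs and 5.36 and 4.03% in mutants. Otub1, which also blocks ubiquitin conjugation by binding E2 enzymes, fell by 1.38 ± 0.37 on the log2 scale in activated eggs (edgeR adjusted p = 0.0173) and by 1.08 ± 0.21 in mutants (edgeR adjusted p = 0.00365), while Otub2 rose by 1.06 ± 0.29 in activated eggs (edgeR adjusted p = 0.0225) and by 0.94 ± 0.21 in mutants (edgeR adjusted p = 0.00798). Josd1, a Josephin enzyme at the cell membrane, rose by 1.70 ± 0.38 in activated eggs (edgeR adjusted p = 0.00543) and by 0.94 ± 0.26 in mutants (edgeR adjusted p = 0.0284) and was 1 of 2 risers, with Mindy4, among 8 tested Josephin, MINDY and ZUP1 genes. Mindy4 itself was low, with 6.28 TMM-scaled CPM in activated eggs, 4.38 to 11.3 CPM in mutants and 0.807 and 1.71 CPM in wildtype eggs. Of 5 tested UCH genes 1 fell in activated eggs, Uchl5, which acts at the proteasome (-1.93 ± 0.54, edgeR adjusted p = 0.0233). Otud1, the other OTU gene that fell in activated eggs, had -2.28 ± 0.74 (edgeR adjusted p = 0.0496). None of 9 JAMM metalloproteases passed in either comparison, and neither did Cyld, Uspl1 or Pan2, relatives of the USPs with other symbols. Of 6 tested genes for ubiquitin and its activating enzymes, Uba6 fell in activated eggs (-1.32 ± 0.41, edgeR adjusted p = 0.0401) and 0 passed in mutants.

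Of 11 tested USP partners 2 fell in activated eggs (7.33% of all genes), and 1 rose and 2 fell in mutants (5.36 and 4.03% of all genes). G3bp1, the partner of Usp10, had 70.9 TMM-scaled CPM in activated eggs, 79.7, 67.01 and 88.9 CPM in the mutants and 143 in wildtype eggs of batch 1, and 77.8, 73.1 and 67.6 in the mutants and 116.9 in wildtype eggs of batch 2. It fell in mutants by 0.78 ± 0.20 on the log2 scale (edgeR adjusted p = 0.0187), with -0.80 ± 0.33 in activated eggs, which did not pass (edgeR adjusted p = 0.134). Of the pair that Usp7 protects, Uhrf1 fell by 1.76 ± 0.30 in activated eggs (edgeR adjusted p = 8.35e-04) and by 1.14 ± 0.17 in mutants (edgeR adjusted p = 4.06e-04). Dnmt1 rose by 0.92 ± 0.20 in mutants (edgeR adjusted p = 0.00744), with -0.70 ± 0.30 in activated eggs (edgeR adjusted p = 0.148). Gmps, an enzyme of guanine nucleotide synthesis that binds Usp7, fell by 1.32 ± 0.37 in activated eggs (edgeR adjusted p = 0.0236). Wdr48 and Wdr20, which activate Usp1, Usp12 and Usp46, did not pass, with log2 folds between -0.11 and 0.46.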

How the data were processed

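Single mouse eggs were sequenced by Smart-seq2, which primes from the poly(A) tail and keeps no strand, with Nextera XT libraries, per the labels' protocols. The authors deposited raw read counts per gene symbol and egg, made with STAR and HTSeq on GRCm38 (mm10), per the submitters' processing notes. No source used here gives the strand setting of the counting. Batch and plate were taken from the labels and library names, and the number of growths from the deposited sample table. The plates in that table differ from the library names in batch 1, and sums per plate and the plate block follow the library names; the other division was not analysed here.

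Counts were summed per group and batch and tested with edgeR 4.0.16 in R 4.3.3 (quasi-likelihood test, robust, TMM scaling, genes kept by filterByExpr with a minimum count of 10, terms for group and batch). P-values were adjusted by Benjamini-Hochberg over 13832 genes, with a threshold of 0.05, two-sided. The batch difference was fitted instead with a mean for mutant and for wildtype eggs in each batch and for activated eggs. Standard errors were taken from each log2 fold and its F statistic. Scripts were tested on simulated data. DESeq2 1.42.0 and limma 3.58.1 (voom) were alternatives. Of the gene symbols 88.9% matched GENCODE M21, from which exon lengths, positions and transcript ends were taken.

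The members and lists were chosen with earlier results of these data known. Named were the members called in a comparison, the 8 most abundant and the 5 lowest per kilobase, Usp7, Usp9x, Usp14, Usp21, Usp22, Usp44, up to 3 members of each role list, and called genes of the other families and partners, at most 4 a list. Usp4 and Usp39 also belong to a role list, but their detail and the exclusion of egg 45 were chosen after the values were seen.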

Additional observations from a re-analysis of the deposited data

Results flagged for a closer look

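In wildtype eggs of batch 1, replicate 1 had 304 raw CPM of Usp2, while the other 4 eggs had 118.4 to 172 CPM. This was 1 of 16 checks, made for the 8 called genes in wildtype and M1 eggs of batch 1, so the checks share eggs. The gap to the next egg was 0.712 of the range, just past the cutoff. Chance alone sets an egg apart in about 1 in 20 such checks. The cause was not tested.

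Activated and mutant eggs differed directly in Usp10 and Usp2, with log2 folds of -1.32 ± 0.28 (edgeR adjusted p = 0.0111) and -1.27 ± 0.29 (edgeR adjusted p = 0.0148). Activated eggs were a single sum on a plate of their own, so treatment and plate cannot be told apart.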

How the results depend on the processing

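Main counts of called members were 6 in activated and 6 in mutant against wildtype eggs and 2 in activated against mutant eggs. Without the batch term they were 1 in activated and 0 in mutant against wildtype eggs (1.42 and 0.369% of all genes). In activated against mutant eggs the count was then 0. With sums per plate the mutant count was 2 (3.06% of all genes) and the activated against mutant count 0. That last count was 4 with no filter and 4 with eggs thinned to equal depth. The share of all genes called between activated and mutant eggs moved too. It went from 4.84% to 6.17% with no filter, 9.69% thinned, 1.21% with sums per plate and 0.253% without the batch term. Leaving out 1 sum or egg 45 gave 5 to 8 called members in activated and 3 to 8 in mutant against wildtype eggs, with 3 without the M1 sum of batch 1, and 2 to 3 in activated against mutant eggs. The difference of the mutant response between batches had 0 members, and 1 (Usp4) with no filter or DESeq2. No member was called between mutant groups under any alternative. Usp39 in activated eggs, 0.08 on the log2 scale, was -0.13 without the wildtype eggs of concentrated counts and -0.33 to 1.45 when 1 sum or egg 45 was left out. The cause of these shifts was not tested, apart from egg 45, whose counts are given above. No paired analysis was possible because the sums carry no replicate numbers, and the numbers in the labels only count single eggs. Batch and plate entered the fits as terms instead. Low members, under 1 CPM, are limited by depth.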
